A study of Prunus sibirica with 6 samples.

Results

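Of 1508 transcript clusters annotated as transcription factors or other regulators in flower buds of Siberian apricot (Prunus sibirica), 11 had a dehydration-responsive element-binding (DREB) protein as their best Swiss-Prot hit, each listed once. Buds at the microspore developmental stage were compared between the male sterile clone No. 1 and the male fertile clone No. 60, with 3 libraries of each. Each group is thus 1 clone, a single genotype, and male sterility cannot be told apart from any other difference between these genotypes. No treatment, age or site of the trees is named in the labels. The labels call the libraries biological replicates but do not say whether separate trees were sampled, and every p-value below reflects the scatter among these 6 bud samples, which may be technical. No chromosomal position is given for the clusters, which come from assembled transcripts.

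DREB proteins carry an AP2 DNA-binding domain and bind the dehydration-responsive element found in promoters of genes induced by cold, drought and salt. In Arabidopsis the DREB1 proteins, also called CBF, are mainly switched on by cold, while DREB2 proteins act in drought and heat and DREB2A is held back by protein degradation. Arabidopsis DREB3, also known as TINY2, belongs to a separate branch of the DREB subfamily. Buds of Prunus trees pass the winter dormant, and CBF genes are studied there for cold hardiness.

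The members fell into 3 clusters named DREB1, 5 named DREB2 and 3 named DREB3. All 11 carried a predicted AP2 domain and stood in the AP2/ERF-ERF subfamily of the authors' annotation, and their nucleotide hits were 11 different entries. The Swiss-Prot hit was an Arabidopsis protein for 10 clusters and a rice protein for 1. The names rest on best hits and did not always match between databases. DREB3 Cluster-6671.897 matched TINY of Prunus persica by its protein hit and DREB3 of Prunus mume by its nucleotide hit. DREB3 Cluster-6671.21319 matched ERF039 of Prunus mume, and DREB2B Cluster-6671.3173 matched uncharacterized Prunus proteins. DREB2A Cluster-6671.2245 matched a putative DREB2H of Prunus by both its protein and its nucleotide hit. DREB2G Cluster-4789.0 matched DREB2D of Prunus mume by both, and DREB1D Cluster-5152.0 matched DREB1F of Prunus mume by its nucleotide hit. Cluster lengths ran from 491 bases for DREB1F (Cluster-4597.0) to 2127 bases for DREB2C (Cluster-6671.904).

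The regulator table held 957196 to 1424835 estimated read counts per library, and whole libraries held an implied 16.2 to 25.3 M fragments, with the fertile libraries the deeper ones. Fertile replicate 1 stood apart from the other fertile libraries, with a chi-square per degree of freedom over the regulator counts of 12.3 and 11.5, against 1.57 to 1.77 for all other pairs within a clone. The 5 floral organ MADS clusters summed to 257 to 267 FPKM in fertile and 255 to 277 in sterile buds, where FPKM are fragment numbers scaled to cluster length and library size. They were led by the SEPALLATA-type factors SEP1 and FBP2, and 3 were called higher and 2 lower in the sterile clone. The 7 tapetum clusters summed to 80.58 to 84.92 FPKM in fertile and 199.9 to 207.7 in sterile buds, 3 of 5 tested being higher and 2 lower. The factor bHLH10 made up most of that gap, rising from 24.9 ± 0.87 FPKM in the fertile clone to 135 ± 2.65 in the sterile one (mean and SD of 3 libraries each). Best hits to the tapetum factor ABORTED MICROSPORES named 2 clusters, of which 1 was higher (Cluster-6671.7223, 31.4 ± 1.63 against 19.7 ± 1.75 FPKM) and 1 lower (Cluster-6671.14745, 29.8 ± 0.265 against 32.8 ± 1.02), and MS1, a late tapetum factor, had 170 counts in sterile and 2 in fertile buds. These clusters other than bHLH10 and Cluster-6671.14745 were picked after their values were seen. Scaled by the implied totals of whole libraries, Cluster-6671.14745 (log2 fold change -0.14, edgeR adjusted p = 0.0526) was no longer called lower. Neither was SEP1 (-0.04, edgeR adjusted p = 0.634). On that scale 3 clusters were higher and 1 lower in the MADS list, and 3 higher and 1 lower in the tapetum list. The green tissue factor GLK2 stood at 11.74 to 14.2 FPKM in sterile and 10.25 to 11.31 in fertile buds, and no cluster of these lists was at 0 throughout a clone. The part of this tapetum difference in the DREB values and in the lists of factors below was not tested. In whole buds fewer cells of a type and less RNA per cell cannot be told apart.

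The sterile buds had less RNA of the most abundant fertile-bud DREB, DREB3 Cluster-6671.897, and more of DREB2A, DREB2B, DREB2C and of another DREB3 cluster. By edgeR's quasi-likelihood test on the counts, with Benjamini-Hochberg adjusted p under 0.05 over all 1380 regulator clusters tested, 4 DREB clusters were higher in the sterile clone, 3 were lower and 2 were not called. The remaining 2, a DREB1D and the DREB1F cluster, fell below the low-count filter. Without fertile replicate 1 the calls were 4 higher and 2 lower. The clones differed in most regulators. Of all clusters tested 57.0% were called, 28.0% higher and 28.9% lower, so the number of DREB clusters called is no result about the family. With a change of at least 2-fold, 1 DREB cluster was called higher and 2 lower, beside 5.72% and 7.68% of all clusters tested (13.4% in all). Scaled by the implied totals of whole libraries, 4 DREB clusters were called higher and 2 lower, beside 62.6% of all called (41.1% higher and 21.5% lower). FPKM ranges of the clones did not overlap for 7 of the 11 DREB clusters, 4 with the sterile clone above and 3 with it below, of which 1 was not tested, beside 68.6% of the tested regulators (46.2% above and 22.5% below).

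**Figure D1:**
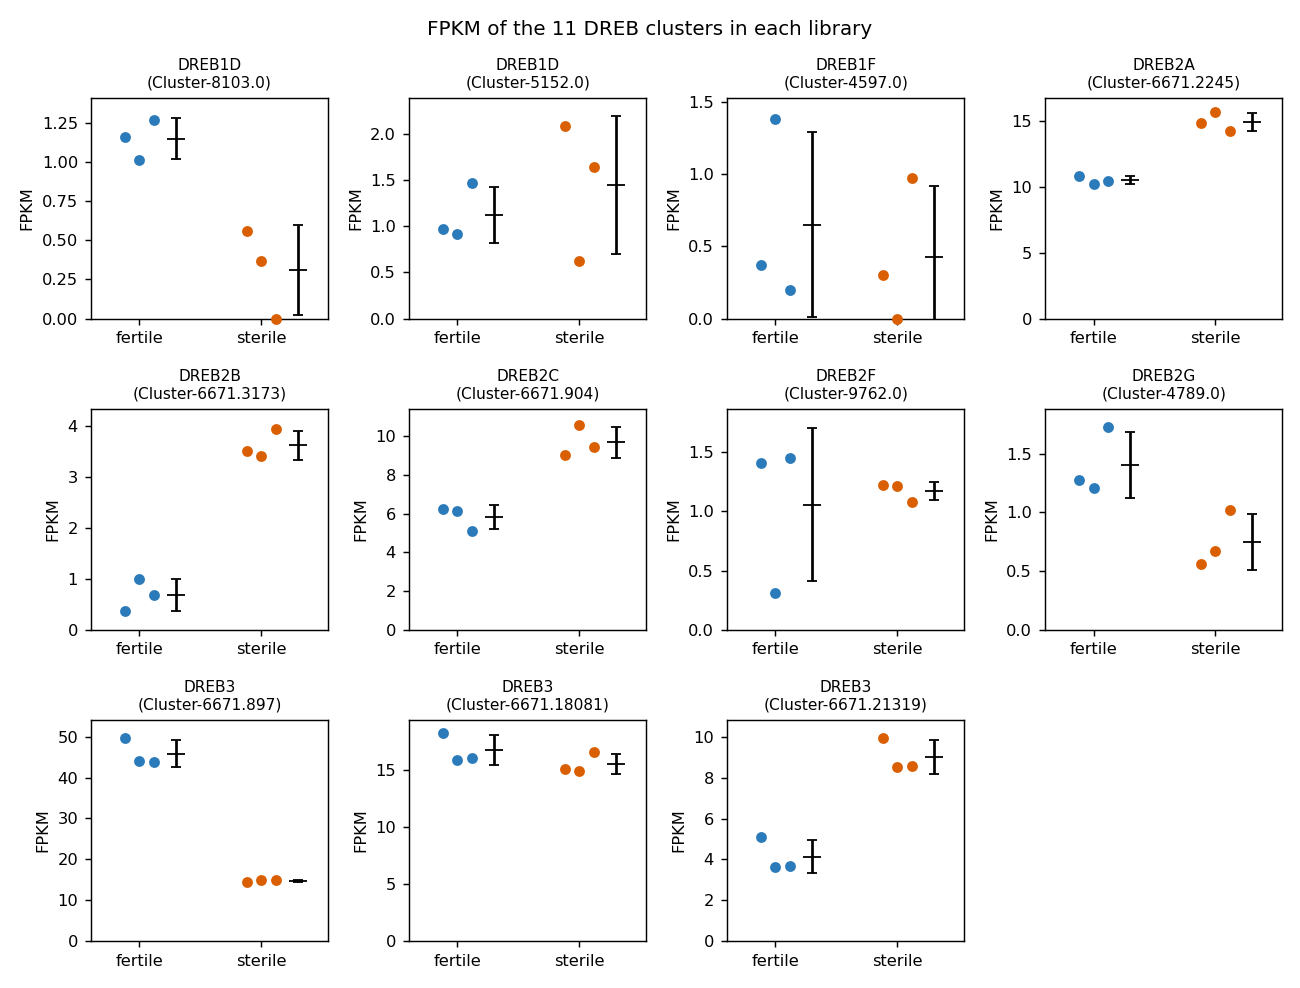
FPKM (vertical axes, each from 0) of the 11 DREB clusters in the 3 fertile (blue) and 3 sterile (orange) libraries, with the mean and SD in black, bars cut at 0. DREB3 Cluster-6671.897 stood at 43.8 to 49.72 FPKM in fertile and 14.41 to 14.88 in sterile buds, and DREB2B at 0.37 to 1 against 3.41 to 3.94.

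The DREB3 clusters moved in different directions. DREB3 Cluster-6671.897 stood at 49.72, 44.13 and 43.8 FPKM in the fertile libraries and at 14.41, 14.88 and 14.84 in the sterile ones. All sterile values lay below all fertile ones, and the sterile libraries differed from each other by far less than from the fertile ones. The sterile level was 3.47-fold lower, at -1.79 ± 0.08 (SE) on the log2 scale (edgeR adjusted p = 3.29e-12). This was the cluster with the 47th lowest log2 fold change among the 1380 tested. It rested on 4081 counts in the fertile and 958 in the sterile libraries, so counting error is small beside the difference.

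DREB3 Cluster-6671.21319 went the other way. It stood at 5.1, 3.65 and 3.67 FPKM in fertile buds and at 9.98, 8.52 and 8.6 in sterile buds, with no overlap. The sterile level was 1.95-fold higher, or 0.96 ± 0.15 on the log2 scale (edgeR adjusted p = 2.75e-05).

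DREB3 Cluster-6671.18081 differed little between the clones. It stood at 18.26, 15.89 and 16.02 FPKM in fertile and at 15.12, 14.89 and 16.54 in sterile buds, and these ranges overlap. Its log2 fold change of -0.26 ± 0.10 passed the threshold (edgeR adjusted p = 0.0278), but the call was lost under 10 of 16 alternatives. Scaled by implied library totals it was -0.13 (adjusted p = 0.234), and without fertile replicate 1 it was -0.17 (adjusted p = 0.103). It was also lost without sterile replicate 1 (-0.22, adjusted p = 0.112) and without sterile replicate 2 (-0.27, adjusted p = 0.0544).

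Ratios between clusters within a library do not depend on how libraries are scaled. DREB3 Cluster-6671.897 held 2.72, 2.78 and 2.73 times the FPKM of Cluster-6671.18081 in the fertile libraries, and 0.953, 0.999 and 0.897 times in the sterile ones. In fertile buds the former was the leading DREB transcript, and in sterile buds the pair stood at about the same level. Against Cluster-6671.21319 it held 9.75, 12.1 and 11.9 times the FPKM in fertile and 1.44, 1.75 and 1.73 times in sterile buds. Cluster-6671.18081 held 3.58, 4.35 and 4.37 times the FPKM of Cluster-6671.21319 in fertile and 1.52, 1.75 and 1.92 times in sterile buds. For each of these 3 ratios the clones did not overlap. The exact two-sided permutation test on the log2 ratio gave p = 0.1 for each, also after adjustment over the 3. That is the smallest p that 3 against 3 libraries allow, and any ratio without overlap gives it. The test was run with the values of these clusters known, and its p adds no support beyond the lack of overlap.

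**Figure D2:**
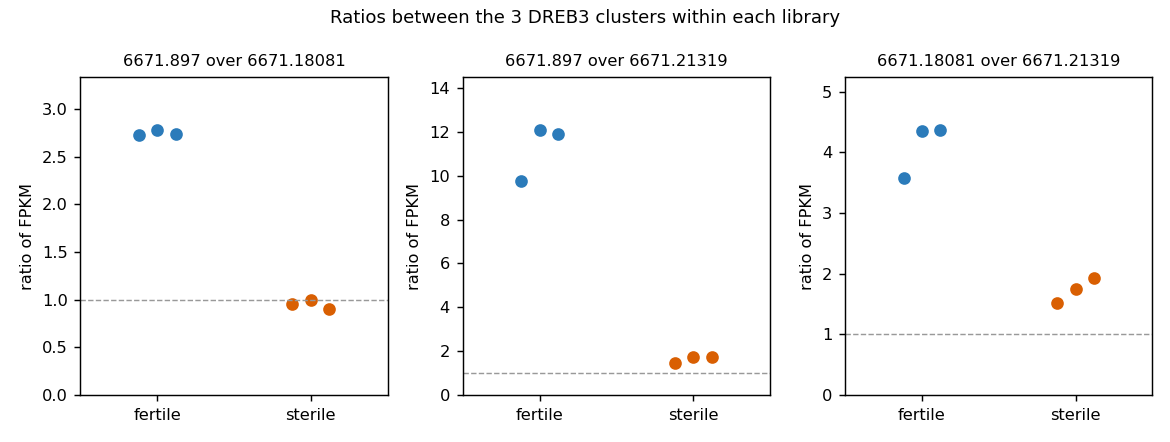
Ratio of FPKM (vertical axes, from 0) between pairs of the 3 DREB3 clusters in each fertile (blue) and sterile (orange) library, with a dashed line at a ratio of 1. Cluster-6671.897 over Cluster-6671.18081 was 2.72 to 2.78 in fertile and 0.897 to 0.999 in sterile libraries.

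Of the 5 DREB2 clusters 3 were higher in the sterile clone, 1 was lower and 1 was not called. DREB2A is in Arabidopsis a main activator of drought and heat response. Cluster-6671.2245, which matched it by its Swiss-Prot hit only, stood at 10.82, 10.25 and 10.46 FPKM in fertile and at 14.82, 15.68 and 14.27 in sterile buds. The ranges were tight and apart. On counts the sterile level was 1.28-fold higher, or 0.35 ± 0.09 on the log2 scale (edgeR adjusted p = 0.00183).

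DREB2C (Cluster-6671.904), whose Arabidopsis namesake acts in heat response, stood at 6.24, 6.13 and 5.1 FPKM in fertile and at 9.02, 10.59 and 9.43 in sterile buds. Again every sterile library lay above every fertile one. The log2 fold change was 0.58 ± 0.11 (edgeR adjusted p = 0.000175).

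DREB2B (Cluster-6671.3173), named after a rice factor of drought and heat response, was the member with the largest rise. It stood at 0.37, 1 and 0.69 FPKM in fertile and at 3.5, 3.41 and 3.94 in sterile buds, from 16, 45 and 27 counts against 100, 107 and 133. The fertile libraries were low and unequal, with an SD of 0.315 FPKM on a mean of 0.687, while the sterile ones agreed closely. It rose 4.74-fold, or by 2.24 ± 0.23 on the log2 scale (edgeR adjusted p = 2.13e-07), the 20th highest of the 1380 tested. Leaving out fertile replicate 1 or 2 moved it to 1.96 or 2.63. Its rice hit was the weakest of the members by score (268, E-value 4.7e-22).

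DREB2G (Cluster-4789.0) was low in both clones. It stood at 1.28, 1.21 and 1.73 FPKM in fertile and at 0.56, 0.67 and 1.02 in sterile buds, from 21, 21 and 26 counts against 6, 8 and 13. The ranges do not overlap, although the highest sterile and the lowest fertile library lie close together. The log2 fold change was -1.03 ± 0.37 (edgeR adjusted p = 0.0235). The call was lost under 8 of 16 alternatives, among them DESeq2 (-1.06, adjusted p = 0.0684), limma on FPKM, and leaving out fertile replicate 3 (-0.88, adjusted p = 0.0814), sterile replicate 1 (-0.85, adjusted p = 0.0989) or sterile replicate 2 (-0.98, adjusted p = 0.0695).

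DREB2F (Cluster-9762.0) was not called. It stood at 1.41, 0.31 and 1.45 FPKM in fertile and at 1.22, 1.21 and 1.08 in sterile buds. Fertile replicate 2 was the low one, with 8 counts (exact Poisson 95% interval 3.45 to 15.8) beside 35 (24.4 to 48.7) and 33 (22.7 to 46.3) in the other fertile libraries, so these intervals do not meet. The intervals cover counting error only. The log2 fold change was 0.02 ± 0.44 (edgeR adjusted p = 0.981), and -0.45 without fertile replicate 2 (adjusted p = 0.213).

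**Figure D3:**
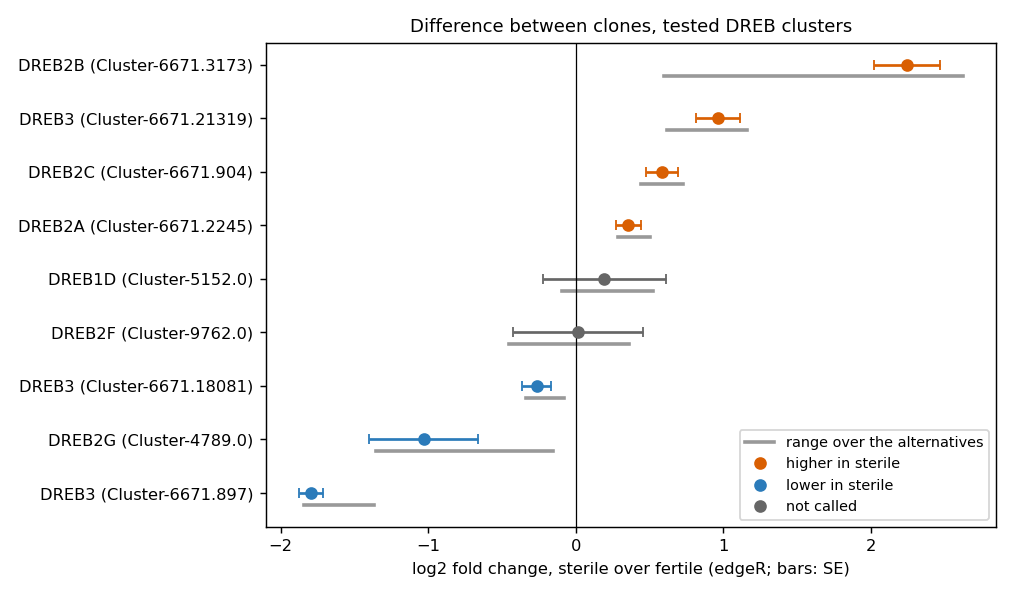
Log2 fold change, sterile over fertile, of the 9 DREB clusters tested by edgeR, with SE bars, and in grey the range of each value over 16 alternatives, which include fits to log2 FPKM with pseudocounts that shrink low clusters. DREB3 Cluster-6671.897 stood at -1.79 and DREB2B at 2.24, and the clusters in dark grey were not called.

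The DREB1 clusters, the cold-response branch, were scarce in these buds, none above 2.08 FPKM in any library. DREB1D Cluster-8103.0, which matched a CBF/DREB1-like gene of Prunus mume, stood at 1.16, 1.01 and 1.27 FPKM in fertile and at 0.56, 0.37 and 0 in sterile buds, from 13, 12 and 13 counts against 4, 3 and 0. All fertile libraries lay above all sterile ones. The 0 in sterile replicate 3 has an exact Poisson 95% interval of 0 to 3.69 counts, and 3 counts there would be 0.341 FPKM. The cluster fell below the low-count filter of the test. The pooled counts, 7 in sterile and 38 in fertile buds, gave a ratio of 0.226 on the edgeR library scale, with an exact binomial 95% interval of 0.0853 to 0.513 that covers counting error only. Without the filter edgeR gave -2.12 ± 0.67 (adjusted p = 0.0118), limma on log2(FPKM + 1) gave an adjusted p of 0.0302, and the authors' deposited table gives a q-value of 0.0822.

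DREB1D Cluster-5152.0, which matched the CBF gene of Prunus mume, was not called. It stood at 0.97, 0.92 and 1.47 FPKM in fertile and at 2.08, 0.62 and 1.64 in sterile buds. The sterile libraries spread around the fertile ones, from 6 to 18 counts. The log2 fold change was 0.19 ± 0.42 (edgeR adjusted p = 0.724), and the pooled ratio of 1.15 had a counting interval of 0.73 to 1.79. DREB1F (Cluster-4597.0) had 11 counts in the fertile and 5 in the sterile libraries, a pooled ratio of 0.559 with an interval of 0.152 to 1.74. Both intervals include a ratio of 1 and cover counting error only.

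Summed over the 11 clusters, DREB transcripts came to 95.7, 85.88 and 85.86 FPKM in the fertile and to 71.57, 70.84 and 72.33 FPKM in the sterile libraries. The sterile sums were lower in every library, while the whole AP2/ERF-ERF subfamily of 78 clusters summed to more in the sterile libraries (1667 to 1706 FPKM) than in the fertile ones (1470 to 1571 FPKM). DREB transcripts thus took 5.92% ± 0.147 of the subfamily's FPKM in fertile and 4.25% ± 0.0771 in sterile buds (SD, n = 3 each). Fertile replicate 1 held the highest DREB sum. Without it the difference of the means, sterile minus fertile, was -14.3 instead of -17.6 FPKM. No p-value is given for these sums, because the clusters were grouped with results known. Without Cluster-6671.897 the direction was the opposite. That sum was 43.3 ± 2.36 FPKM in fertile and 56.9 ± 0.805 in sterile buds.

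The make-up of the sum differed more than its size. The DREB3 clusters took 76.4%, 74.1% and 73.9% of it in the fertile and 55.2%, 54.1% and 55.3% in the sterile libraries. The DREB2 clusters took 21.0%, 22.01% and 22.6% in fertile and 40.7%, 44.6% and 41.1% in sterile buds. For both classes the clones lay apart in every library. Cluster-6671.897 took 51.5% ± 0.474 in fertile and 20.6% ± 0.437 in sterile buds. The DREB1 share, 3.30% ± 0.631 and 3.04% ± 1.44, overlapped. Shares also depend on the total, which was lower in sterile buds. In FPKM the DREB2 clusters summed to 19.5 ± 0.612 in fertile and 30.1 ± 1.27 in sterile buds, a ratio of 1.55, while the ratio of their shares was 1.92.

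**Figure D4:**
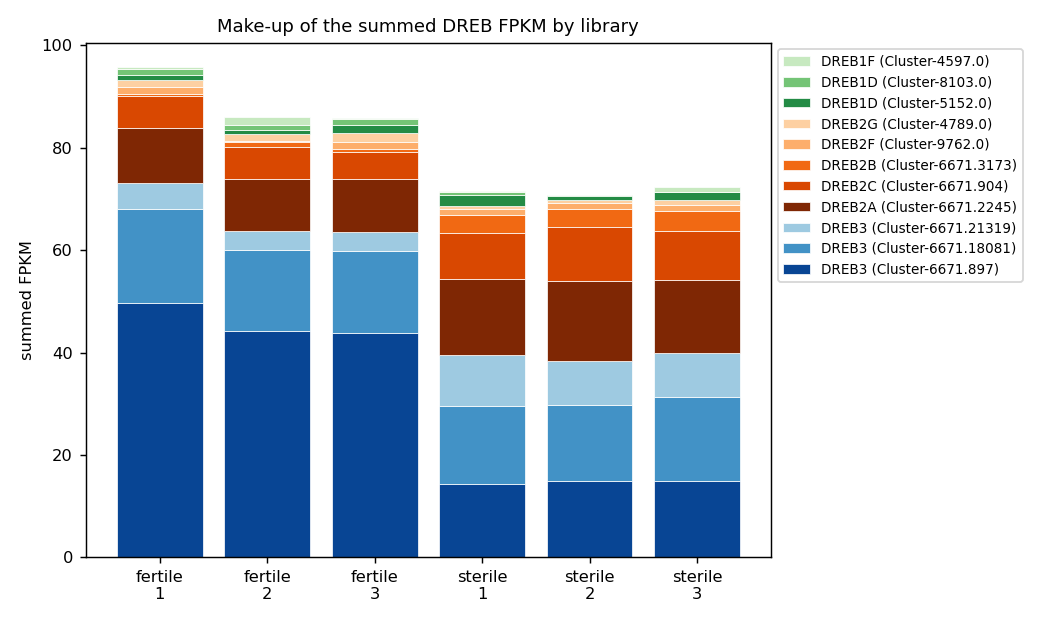
Summed FPKM (vertical axis) of the 11 DREB clusters in each of the 6 libraries, with DREB3 clusters in blue, DREB2 in brown and orange and DREB1 in green. The fertile bars reach 85.86 to 95.7 and the sterile bars 70.84 to 72.33, and the darkest blue block, Cluster-6671.897, shrinks from 51.5% to 20.6% of the bar.

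The order of the members differed accordingly. In fertile buds Cluster-6671.897 led at 45.9 FPKM on average, followed by Cluster-6671.18081 at 16.7, DREB2A at 10.5 and DREB2C at 5.82. Each of the first 3 lay above the next in all libraries, while DREB2C and Cluster-6671.21319 overlapped. In sterile buds Cluster-6671.18081, DREB2A and Cluster-6671.897 averaged 15.5, 14.9 and 14.7 FPKM. Neighbours in that order overlapped between libraries. Cluster-6671.897 (14.41 to 14.88 FPKM) lay just below Cluster-6671.18081 (14.89 to 16.54) in every sterile library.

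Factors known in Arabidopsis to act on DREB1 genes differed by small amounts. Of 8 clusters tested, 3 were higher, 2 were lower and 3 passed in neither direction, which is 62.5% called beside 57.0% of all regulators. Their median log2 fold change was 0.05, beside 0.01 over all regulators. ICE1, the bHLH activator of DREB1 genes, was named by a pair of clusters. The more abundant (Cluster-6671.12134) averaged 31.0 ± 0.585 FPKM in the sterile and 29.3 ± 1.36 FPKM in the fertile clone and was not called (-0.07 ± 0.06, edgeR adjusted p = 0.39), a value that turned to 0.071 with the implied totals. The other (Cluster-6671.2967) was lower, at 10.6 ± 0.0557 against 12.0 ± 0.319 FPKM (-0.33 ± 0.08, edgeR adjusted p = 0.00135). The light-signalling factor PIF4 was higher, at 9.07 ± 0.389 against 5.62 ± 0.22 FPKM (0.55 ± 0.08), and PIF1 too (0.30 ± 0.08). CAMTA4, of the calmodulin-binding activators that link calcium to cold response, was at -0.30 ± 0.08 with overlapping FPKM ranges, and it was no longer called with the implied totals (-0.17, adjusted p = 0.0944). CAMTA3, of the same family, was higher, at 10.3 ± 0.1 against 8.4 ± 0.229 FPKM (0.16 ± 0.06, edgeR adjusted p = 0.0352). It is named here after its values were seen. With the implied totals CAMTA3 stood at 0.29 (edgeR adjusted p = 0.000609). On that scale 4 of the list were higher and 1 lower.

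Factors tied to DREB2A in Arabidopsis were 2 higher, 1 lower and 3 not called of 6, or 50% called beside 57.0% of all regulators, with a median of 0.08. The heat stress factor HSFA1 was higher, at 14.3 ± 0.63 against 8.66 ± 0.85 FPKM (0.57 ± 0.08, edgeR adjusted p = 1.34e-05). HSFA3, which DREB2A switches on in Arabidopsis, stood at 1.34 ± 0.24 against 0.857 ± 0.127 FPKM (0.51 ± 0.20, edgeR adjusted p = 0.0337), a call lost with DESeq2 (adjusted p = 0.0973), with limma, and on leaving out replicate 2 of the fertile clone (0.42) or replicate 1 (0.57) or 3 (0.33) of the sterile one. BPM proteins bring DREB2A to degradation in Arabidopsis. BPM2 Cluster-6671.5360 was lower (-0.28 ± 0.06, edgeR adjusted p = 0.00105) and BPM4, the most abundant at 41.4 ± 1.15 and 36.0 ± 0.437 FPKM, was not called (0.06 ± 0.06). Another BPM2 cluster (Cluster-6671.14385), named here after its values were seen, was not called (-0.10 ± 0.06, edgeR adjusted p = 0.177). It averaged 25.9 ± 0.711 FPKM in the sterile and 25.1 ± 0.512 in the fertile clone, with overlapping ranges. With the implied totals 4 of the 6 were higher, BPM4 among them (0.19, adjusted p = 0.0113). On that scale BPM2 Cluster-6671.5360 was no longer called (-0.14, adjusted p = 0.0583), and Cluster-6671.14385 turned to 0.036 (adjusted p = 0.608).

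The abscisic acid arm of bZIP factors had 2 higher, 1 lower and 2 not called of 5 tested, or 60.0% called beside 57.0% of all regulators, with 1 cluster below the filter. Without sterile replicate 3 it had 1 higher and 2 lower. ABI5 was higher, at 5.66 ± 0.172 against 2.68 ± 0.333 FPKM (0.93 ± 0.13, edgeR adjusted p = 1.17e-05), and ABF2 too (0.25 ± 0.08, adjusted p = 0.00896), a call lost without sterile replicate 3 (0.21). The list's lower member, DPBF3 Cluster-8439.0, stood at 7.13 ± 0.673 FPKM in fertile buds on 599 counts and had 1 count in sterile buds. The ratio of fertile over sterile was 487, with an exact binomial 95% interval of 87.1 to 19277 that covers counting error only. The 2 not called clusters of the list were named DPBF3 too, and are given after their values were seen. The more abundant, Cluster-6671.13456, averaged 39.6 FPKM in the sterile clone against 37.6 (-0.08 ± 0.06, edgeR adjusted p = 0.302), a value that turned to 0.057 with the implied totals. Cluster-6671.5755 averaged 5.72 FPKM in the sterile clone against 5.17 (0.0005 ± 0.09, edgeR adjusted p = 0.998).

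Of 20 further factors of cold and drought response tested, 10 were lower, 4 higher and 6 not called, with a median of -0.35. That is 50% lower and 20.0% higher, beside 28.9% and 28.0% of all regulators, and with the implied totals 9 were lower and 5 higher. Zinc fingers of the ZAT type made up 12 of the 20, of which 7 were lower, 1 was higher and 4 were not called. The higher one, ZAT12, a cold and oxidative stress factor in Arabidopsis, was higher at 5.49 ± 1.08 against 1.15 ± 0.327 FPKM (2.08 ± 0.26, edgeR adjusted p = 2.63e-06). A cluster named NAC072 (Cluster-6671.7349), after a drought-induced NAC factor, was higher at 18.5 ± 1.33 against 5.75 ± 0.775 FPKM (1.53 ± 0.10), and so was one named MYB2 at 6.53 ± 0.913 against 1.98 ± 0.452 FPKM (1.56 ± 0.20). A cluster named NAC002 (Cluster-8766.0) was lower at 0.78 ± 0.125 against 2.14 ± 0.155 FPKM (-1.60 ± 0.19, edgeR adjusted p = 1.57e-06). Other clusters took these NAC names too, and are given after their values were seen. NAC072 Cluster-6671.15686, the more abundant, was not called, at 56.4 ± 1.27 against 54.1 ± 2.86 FPKM (-0.09 ± 0.07), a value that turned to 0.046 with the implied totals. NAC002 Cluster-6671.5335 was higher, at 12.1 ± 0.414 against 8.27 ± 0.812 FPKM (0.39 ± 0.09, edgeR adjusted p = 0.00169). NAC002 Cluster-6671.11259 was lower (-0.23 ± 0.08, edgeR adjusted p = 0.0213) with overlapping FPKM ranges, and it was no longer called with the implied totals (-0.09, adjusted p = 0.311).

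Relatives placed in the DREB subfamily in Arabidopsis under other names numbered 15, of which 14 were tested, 7 lower, 3 higher and 4 not called, with a median of -0.41. That is 50% lower and 21.4% higher, beside 28.9% and 28.0% of all regulators. With the implied totals 6 were lower and 3 higher, and with limma on filtered log2(FPKM + 1) 4 were lower. ERF012 was lower, at 1.95 ± 0.358 against 13.3 ± 2.19 FPKM (-2.94 ± 0.18, edgeR adjusted p = 2.1e-10). ERF022 had 137 counts in fertile and 0 in sterile buds, at least 37.1-fold lower when the sterile libraries are given 3 counts together. RAP2-4 Cluster-6671.12879, whose Arabidopsis namesake acts in light and drought response, was higher at 75.9 ± 1.98 against 33.3 ± 1.37 FPKM (1.04 ± 0.07). A second RAP2-4 cluster (Cluster-6671.8660), named here after its values were seen, was lower at 71.0 ± 0.621 against 80.5 ± 5.07 FPKM (-0.33 ± 0.07, edgeR adjusted p = 0.000604). ERF062 was higher at 1.81 ± 0.0503 against 0.5 ± 0.252 FPKM (1.68 ± 0.32). Over all 67 further clusters of the AP2/ERF-ERF subfamily, which hold these relatives, 28 were lower, 9 higher and 22 not called of 59 tested. That is 47.5% lower and 15.3% higher, beside 28.9% and 28.0% of all regulators, and a difference from the DREB clusters was not tested. With the implied totals 25 of these were lower and 15 higher.

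**Figure D5:**
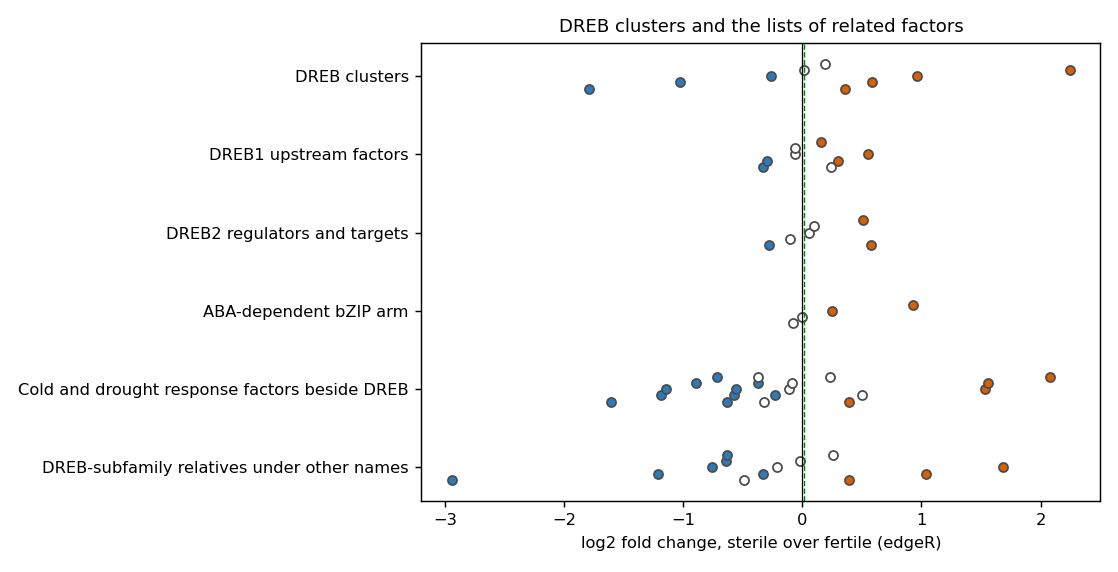
Log2 fold change, sterile over fertile (edgeR), of the tested DREB clusters and of the lists of related factors, each point 1 cluster, filled orange where called higher, blue where called lower and white where not called, with the median of all regulators as a dashed line. The 2 clusters with 3 or fewer counts in a clone are left out, and the DREB clusters run from -1.79 to 2.24.

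A test on log2(FPKM + 1) with limma over 21730 clusters of the whole FPKM table called 4 of the 10 DREB clusters it could test higher and 2 lower, beside 49.8% of all clusters (29.1% higher and 20.7% lower). The 2 lower were Cluster-6671.897 (-1.58 ± 0.06, adjusted p = 2.3e-06) and DREB1D Cluster-8103.0 (-0.74 ± 0.22, adjusted p = 0.0302). The authors' deposited table marks 2 DREB clusters as up, DREB2B with a log2 fold change of 2.32 and Cluster-6671.21319 with 1.03, and 1 as down, Cluster-6671.897 with -1.73, among 12.4% of all regulators marked either way. These marks do not follow a q-value under 0.05 alone, unlike the calls above. DREB2A (0.42, q = 0.00262) and DREB2C (0.65, q = 4.83e-05) are not marked there. The authors' q-value was 0.203 for DREB2G and 0.319 for Cluster-6671.18081.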

How the data were processed

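Estimated counts per cluster, which need not be whole, and FPKM were deposited by the authors for 1508 regulator clusters, and FPKM for 34377 clusters, per the file headers. The regulator table also holds log2 fold changes and q-values computed by the authors, and the deposited Swiss-Prot score of each hit. Per the submitters' processing notes the tools included RSEM, Bowtie2 and CASAVA, whose versions are not stated. How clusters were assembled is not given in the sources used here. RSEM-type counts divide reads between similar clusters, so close paralogs may share reads.

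Rounded counts entered edgeR 4.0.16 in R 4.3.3 (filterByExpr, which removed 128 clusters, TMM within the table, robust glmQLFit, glmQLFTest). Each SE is the log2 fold change over the root of its F. FPKM were tested with limma 3.58.1 (trend, robust) for clusters with at least 1 FPKM in 3 libraries. The added 1 FPKM shrinks changes of scarce clusters. DESeq2 1.42.0 was an alternative. The estimated biological coefficient of variation was 6.82%. Whole-library totals were implied by how counts, FPKM and cluster lengths relate (robust regression). Members, lists and tests were chosen with earlier results of these data known. A planned permutation test of the summed FPKM was left out for that reason. Named were all DREB clusters and, per list, up to 4 called clusters of the largest absolute change with a mean of at least 1 FPKM in a clone, plus the most abundant not called cluster of the lists tied to DREB1 and DREB2. Clusters named beyond this rule were chosen after their values were seen, as stated where they appear. Name patterns of the lists that caught unrelated genes were tightened after their matches were seen. Tests were checked on simulated data.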

Additional observations from a re-analysis of the deposited data

How the results depend on the processing

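The 4 higher DREB clusters, DREB2A, DREB2B, DREB2C and DREB3 Cluster-6671.21319, and the lower Cluster-6671.897 kept their direction and call under all 16 alternatives. The number of lower DREB clusters was 2 to 4 when a library was left out and 1 with limma on log2(FPKM + 0.1). Limma gave 249 lower regulators with pseudocounts of 1 (with and without the filter) and 5, and 248 with 0.1, against 399. Under scaling by implied library totals, 567 regulators were higher and 297 lower instead of 387 and 399, as the median over all regulators moved from 0.01 to 0.15 (log2). The summed DREB FPKM, 17.6 lower in the sterile clone (a difference of -17.6), was at -22.2 after scaling by median ratios of the FPKM table, and between -19.2 and -14.3 with a library left out. Among the DREB clusters and the list clusters named by the rule above, values that changed sign were never called. DREB1D Cluster-5152.0 ran from -0.095 (without sterile replicate 1) to 0.52 with a library left out. DREB2F ran from -0.45 (without fertile replicate 2) to 0.33, and was also at -0.042 without sterile replicate 2, -0.0064 with DESeq2 and -0.013 without the low-count filter. ICE1 Cluster-6671.12134 was at 0.071 with the implied totals, and with limma at 0.079 (pseudocount of 1, with and without the filter), 0.081 (0.1) or 0.070 (5). Of clusters named beyond the rule, DPBF3 Cluster-6671.13456 (0.057), NAC072 Cluster-6671.15686 (0.046) and BPM2 Cluster-6671.14385 (0.036) also changed sign with the implied totals, and were not called there. Same-numbered libraries of the clones did not deviate together over the regulators (r = 0.016, 0.027 and 0.009). With 3 libraries per clone this cannot settle whether the numbers pair them. A fit with the replicate block gave 4 higher and 3 lower DREB clusters, as without it. The DREB1 clusters, DREB2F and DREB2G rested on at most 35 counts in a library.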

Other observations

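By mean FPKM over all 6 libraries, DREB3 Cluster-6671.897 ranked 17th, Cluster-6671.18081 24th and DREB2A 29th of the 78 clusters of the AP2/ERF-ERF subfamily, and DREB1F ranked 74th. Cluster-6671.897 lay above 87.8% of all regulators and DREB1F above 5.44%. The coefficient of variation of Cluster-6671.897 was 7.25% in fertile and 1.77% in sterile buds, and that of DREB2A 2.74% and 4.76%, while DREB1F reached 98.1% and 117%. DREB2F varied by 61.2% in fertile and 6.68% in sterile buds.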
